A study of Mus musculus with 6 samples.

Results

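Scavenger receptors and the mannose receptor are the surface proteins with which macrophages and sinusoidal endothelium take up modified lipoproteins, haemoglobin complexes, hyaluronan, glycoproteins and dying cells. The 10 genes described here are Msr1, Marco and Scara5 (class A), Cd36 and Scarb1 (class B), the stabilins Stab1 and Stab2, Cd163, Lyve1 and Mrc1, out of 21631 protein-coding genes on the primary chromosomes. They were chosen by name as members of these receptor families, at a time when earlier results of these data were known, so their adjusted p-values describe these libraries and are not independent evidence. Each locus is the gene's RefSeq span (GRCm38.p6, whose primary chromosomes are those of mm10) with 10 kb on each side. Every peak overlapping a locus was used, once from each library's full deposited list and once from its 50000 peaks of highest −log10 q, which are called the strongest peaks below. The −log10 q therefore chose the peaks of the second kind of list, and its values are given as a description.

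The cells were adherent cells of BALB/c wild-type bone marrow, expanded in culture and typed by the submitters as F4/80+CD169+ macrophages. Open chromatin was mapped by Omni-ATAC, a form of ATAC-seq in which a transposase cuts accessible DNA, in 50000 cells per library. The young group was 3 libraries from mice of 3 weeks and the old group 3 libraries from mice over 78 weeks of age. All 6 libraries share the strain, the wild-type genotype and the culture. The series title concerns how marrow age acts on a B-cell leukaemia, and the comparison set here is that of receptor loci in macrophages from young and from old marrow.

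Class A receptors are trimers with a collagen-like or coiled-coil stalk: MSR1 and MARCO bind modified lipoproteins and bacteria, and SCARA5 takes up ferritin. CD36 binds oxidised lipoprotein and long-chain fatty acids, and SR-BI, the product of Scarb1, is the receptor for high-density lipoprotein. The stabilins and LYVE1 are best known from sinusoidal and lymphatic endothelium, where they take up hyaluronan and other ligands, but resident macrophages can carry STAB1 and LYVE1. CD163 clears haemoglobin bound to haptoglobin, and MRC1, the mannose receptor CD206, is an endocytic lectin.

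The promoters of Cd36 and Mrc1 are shown because they were the 2 of the 6 promoter windows at hand that held a peak in every library, and because they differed in strength. RefSeq promoter sequence (GRCm38.p6) was matched for 6 of the 10 genes: Stab1, Stab2, Marco, Cd36, Cd163 and Mrc1. Each line gives the 250 bases before the start site, 5′ to 3′ on the gene's strand, at chr5:17835897-17836146 (minus strand) for Cd36 and chr2:14229164-14229413 (plus strand) for Mrc1, with every match to the GC box GGGCGG or its complement in capitals.
Cd36: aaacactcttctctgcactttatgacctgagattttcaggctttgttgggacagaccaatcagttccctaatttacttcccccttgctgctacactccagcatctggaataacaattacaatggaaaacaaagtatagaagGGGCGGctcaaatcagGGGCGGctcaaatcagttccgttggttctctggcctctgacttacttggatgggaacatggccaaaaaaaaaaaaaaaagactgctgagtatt
Mrc1: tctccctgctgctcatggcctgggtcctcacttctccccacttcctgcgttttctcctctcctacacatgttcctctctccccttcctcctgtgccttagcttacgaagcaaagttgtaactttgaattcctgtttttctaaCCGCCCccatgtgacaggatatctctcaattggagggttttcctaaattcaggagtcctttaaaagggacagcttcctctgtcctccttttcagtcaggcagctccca

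The Cd36 window held 2 GC boxes, beginning 109 and 93 bases before the start site, and the Mrc1 window held 1 on the minus strand, beginning 108 bases before it. GC boxes occurred in 35.7% of the 32851 promoters in the table. The other motifs searched on both strands, over the 300-base windows from 250 bases before to 50 after the start, were GAGGAAGT (PU.1, in 3.20% of promoters), TGANTCA (AP-1, 7.81%), TTGCNNAA or TTNNGCAA (C/EBP, 10.8%) and CACGTG (the E-box of MITF and TFE factors, 7.15%). None of these 4 was found in the 6 windows, and no GC box was found in those of Stab1, Stab2, Marco and Cd163. A match or its absence describes these letters in this window only.

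A peak covered the Cd36 promoter window in 6 of 6 libraries and was among the strongest 50000 in all 6, with −log10 q of 10.9, 7.34 and 13.1 in young replicates 1 to 3 and 14.5, 8.52 and 9.21 in old replicates 1 to 3. The Mrc1 window also held a peak in 6 of 6 libraries, with −log10 q of 6.54, 6.73 and 5.98 in young and 5.85, 2.63 and 2.05 in old, and was among the strongest 50000 in 1 library, young replicate 2. There it ranked 49878th, just inside the limit, while the peak at the higher end of the Msr1 span in the same library ranked 50545th, just outside it. At Stab2 small pieces of peaks of 29 bp in young replicate 3 and 17 bp in old replicate 2 touched the window, and the windows of Stab1, Marco and Cd163 held no peak in any library. Over the promoters of the primary chromosomes, 44.5% had a peak in all 6 deposited lists and 45.2% had none.

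Promoter sequence was not matched for Msr1, Scarb1, Scara5 and Lyve1, so both ends of their spans were examined, within 250 bases. One end of each held a peak in 6 of 6 libraries: the higher end for Scarb1 (strongest 50000 in 6 libraries, −log10 q between 14.1 and 20.6), Msr1 (in 0) and Lyve1 (in 1), and the lower end for Scara5 (in 1). The gene table used here does not give exons, so places within a gene are given as positions in its span.

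The deposited lists held between 215947 and 254410 peaks covering between 48.2 and 66.1 Mb, and young replicates 1 and 3 and old replicate 1 had the longest coverage. Read depth is unknown, so a place without a peak is one where the caller reported none. The covered length of a locus, in bp, was scaled to an equal sum over all loci in each library. This evens out the totals, but other effects of the length of the list can remain. It is not stated whether the replicates of an age came from different animals or cultures, and p-values then measure only a spread between libraries that may be technical. Loci averaging at least 500 bp were tested with limma on log2(bp + 200), which understates the change of sparsely covered loci, and a locus was called at an adjusted p under 0.05 over all loci tested.

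On the deposited lists, Scarb1 was the most densely covered of the 10 loci and Marco the least. Scarb1 had 83.2 ± 5.32 bp of peak per kb of locus in young and 89.0 ± 5.07 in old (SD, n = 3 each), against a median over all loci of 42.6 and 42.4. Stab1 (63.3 ± 2.01 in young), Lyve1 (61.8 ± 4.05) and Mrc1 (58.8 ± 3.07) came next, and neighbours in this order differed by less than the larger of their SDs. Cd36 (47.0 ± 5.47) and Scara5 (41.1 ± 3.28), whose SD ranges overlapped, were followed by Msr1 (34.0 ± 5.04), Cd163 (27.6 ± 4.52), Stab2 (14.4 ± 1.98) and Marco (1.67 ± 0.389). In old libraries Mrc1 had 48.8 ± 1.56 and Scara5 56.5 ± 2.40, so that their order was the other way round.

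Of the 9 loci tested on the deposited lists, 2 were wider in old, Stab2 and Scara5, and 0 were narrower. Over all 16952 loci tested, 0.383% were wider and 0.578% narrower. All old libraries exceeded all young ones at Stab2, Scara5 and Cd36 and lay under them at Mrc1, where all loci gave 8.61% above and 8.37% below. The median log2 change of the 9 was -0.04, and that of all loci 0.0072. On the strongest peaks, where 8 loci were tested, Stab2 and Scara5 were called wider and Mrc1 narrower, against 0.841% and 0.438% of 14395 loci. Stab2 and Scara5 had young means under the 500 bp filter there and entered the test through their old values, so the count over these 8 describes the loci that passed and does not bear on the deposited calls. Old values lay above young values at Stab2 and Scara5 and below them at Mrc1, Scarb1 and Msr1, where all loci gave 9.84% and 10.5%. The median of the 8 was -0.0028 and that of all loci -0.0021. The strongest peaks are a subset of the deposited ones from the same libraries, so both kinds of list are views of one experiment.

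**Figure D1:**
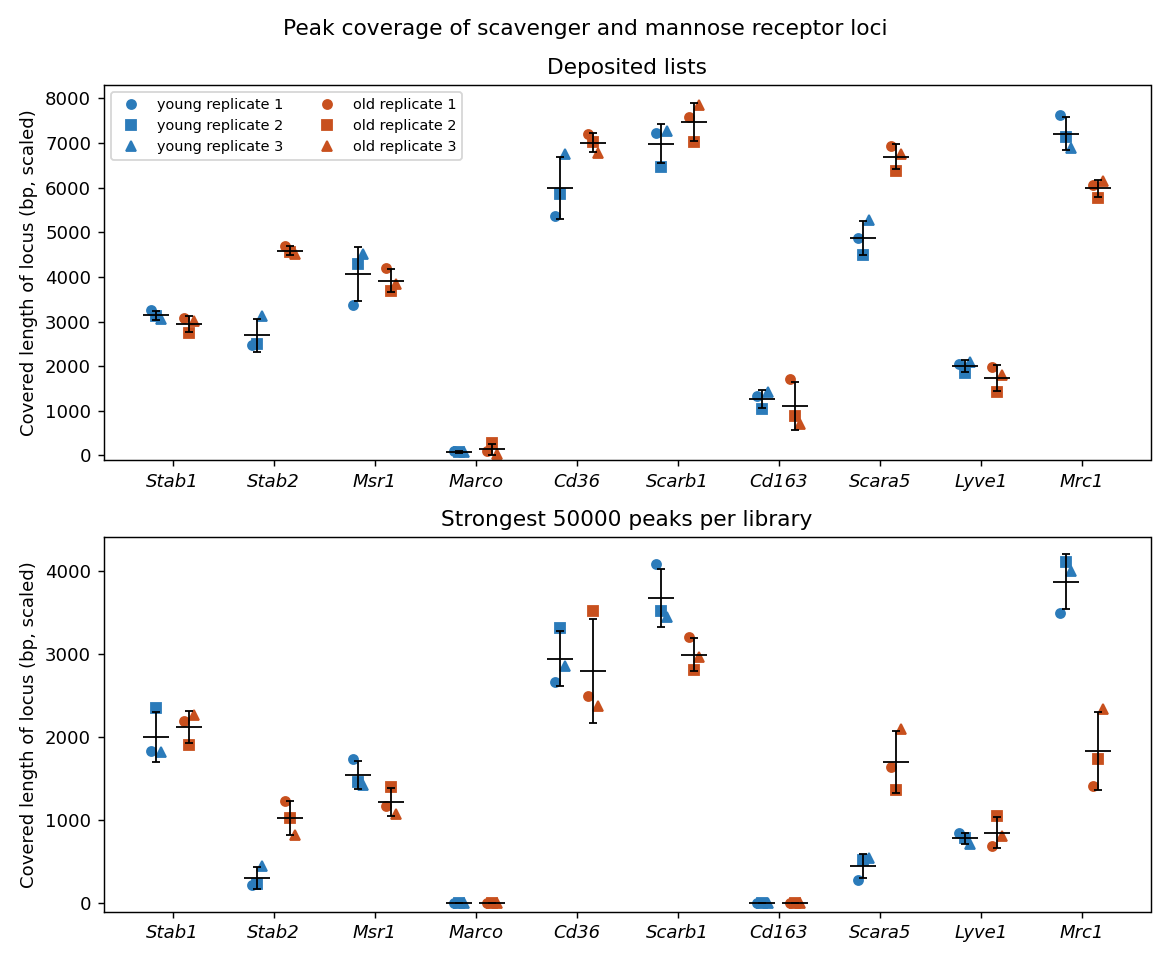
Scaled base pairs covered by peaks in each locus (gene span with 10 kb on each side), for the deposited lists (top) and the strongest 50000 peaks per library (bottom). Points are libraries, horizontal lines the group means and bars the SD (n = 3); old libraries lie above young ones at Stab2 and Scara5 in both panels and below them at Mrc1.

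Stab2, the stabilin that clears hyaluronan in sinusoids, had the largest change on the deposited lists. Its span lies on chromosome 10 from 86841194 to 87008038, and the flank reaches the neighbour Nt5dc3. In order of replicate, deposited peaks spanned 2464, 2490 and 3116 bp in the young libraries and 4695, 4551 and 4509 bp in the old libraries. Every old library lay well above every young one, with means of 2690 ± 369 and 4585 ± 97.4 bp (SD, n = 3). The log2 change was 0.73 (SE 0.09, 95% interval 0.54 to 0.93, limma adjusted p = 0.000679). In the strongest peaks Stab2 was sparse at both ages, with 218, 230 and 456 bp in young and 1230, 1027 and 822 bp in old. The log2 change there was 1.31 (SE 0.24, limma adjusted p = 0.0484), close to the threshold. The young mean of 301 ± 134 bp lay under the 500 bp filter, so the locus was tested only through its old libraries, whose mean was 1026 ± 204 bp (SD, n = 3). A fit of all 21631 loci without the filter gave a limma adjusted p of 0.0464.

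The added coverage at Stab2 was spread over many small peaks of the gene body. The locus held 52 merged regions, of which 8 had a peak in all 6 libraries and 28 had one in a single library. In 0 of them did all 3 libraries of one age and none of the other have a peak. The region with the largest difference, at 86947319 to 86947888, was covered over 153, 202 and 286 bp in young and 570, 467 and 501 bp in old (unscaled, as for all single regions). The region with the highest −log10 q in its weakest library, at 86886464 to 86886810, was covered over 333, 223 and 252 bp in young and 339, 205 and 319 bp in old. Old libraries had 3, 3 and 2 regions among the strongest 50000 and young ones 1, 1 and 2. The largest difference of these, at 86880072 to 86880668, was 232, 0 and 245 bp in young and 597, 231 and 424 bp in old.

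Scara5, the ferritin receptor of class A, was the other wider locus. It lies on chromosome 14 from 65666403 to 65764826, with no neighbouring gene in its flanks. Covered length was 4865, 4487 and 5263 bp in young and 6942, 6381 and 6745 bp in old. The lowest old library exceeded the highest young one, and the log2 change was 0.44 (SE 0.08, 95% interval 0.28 to 0.61, limma adjusted p = 0.0113). In the strongest peaks, lengths were 281, 519 and 552 bp in young and 1648, 1366 and 2103 bp in old. That was a log2 change of 1.56 (SE 0.21, limma adjusted p = 0.0231). Here too the young mean, 451 ± 148 bp, lay under the filter, and the locus was tested only through its old libraries, with a mean of 1706 ± 372 bp (SD, n = 3). Without the filter the limma adjusted p was 0.0147.

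Within Scara5, 15 of 48 deposited regions had a peak in all 6 libraries and 20 had one in a single library. In 0 of them did all 3 libraries of one age and none of the other have a peak. One region of the strongest peaks, at 65739080 to 65739818 in the gene body, was found in the 3 old lists (739, 518 and 542 bp) and in 0 young ones. The matching deposited region was nevertheless covered in every young library, over 484, 485 and 527 bp, with −log10 q of 4.4, 2.9 and 5.9 against 14.3, 6.0 and 8.0 in old, so the young peaks were there but ranked lower. The largest difference on the deposited lists, at 65746777 to 65747398, was 288, 327 and 377 bp in young against 609, 452 and 595 bp in old. At 65694959 to 65695234, the region with the highest −log10 q in its weakest library was covered over 217 to 232 bp in young and 195 to 276 bp in old.

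Mrc1 ran the other way. Its span lies on chromosome 2 from 14229414 to 14332023, contains Mir511, and its lower flank reaches Tmem236. Deposited peaks covered 7618, 7129 and 6879 bp in young and 6053, 5772 and 6138 bp in old. All old values lay below all young values, but the log2 change of -0.26 (SE 0.07, 95% interval -0.41 to -0.11) had a limma adjusted p of 0.0957 and was not called. In the strongest peaks the lengths were 3496, 4120 and 4011 bp in young and 1413, 1742 and 2340 bp in old. There the locus fell by 1.03 on the log2 scale (SE 0.16, limma adjusted p = 0.0318), from a mean of 3875 ± 333 to 1832 ± 470 bp (SD, n = 3). With the gene span alone the log2 change was -0.69 and was not called (limma adjusted p = 0.112).

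Fewer regions of Mrc1 were among the strongest in old libraries, and others had the same width at both ages. Young libraries had 7, 8 and 8 regions among the strongest 50000 and each old library had 4. The region with the highest −log10 q in its weakest library, at 14312467 to 14312935 in the gene body, was covered over 439, 429 and 467 bp in young and 460, 447 and 441 bp in old, and its −log10 q reached 48.0 in old replicate 1. The largest difference on the strongest peaks lay in the flank, beyond the higher end of the span, at 14336739 to 14337506. This region was found in the 3 young lists (768, 577 and 614 bp) and in 0 old ones, although deposited peaks lay there in every old library over 692, 658 and 582 bp. Near the start site, at 14231021 to 14231973, the covered length was 534, 911 and 843 bp in young and 315, 354 and 839 bp in old, where old replicate 3 resembled the young libraries. A pair of small deposited regions of the gene body, at 14275901 to 14276085 and 14293670 to 14293805, had a peak in 3 young and 0 old libraries, with −log10 q of 1.30 to 3.45.

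**Figure D2:**
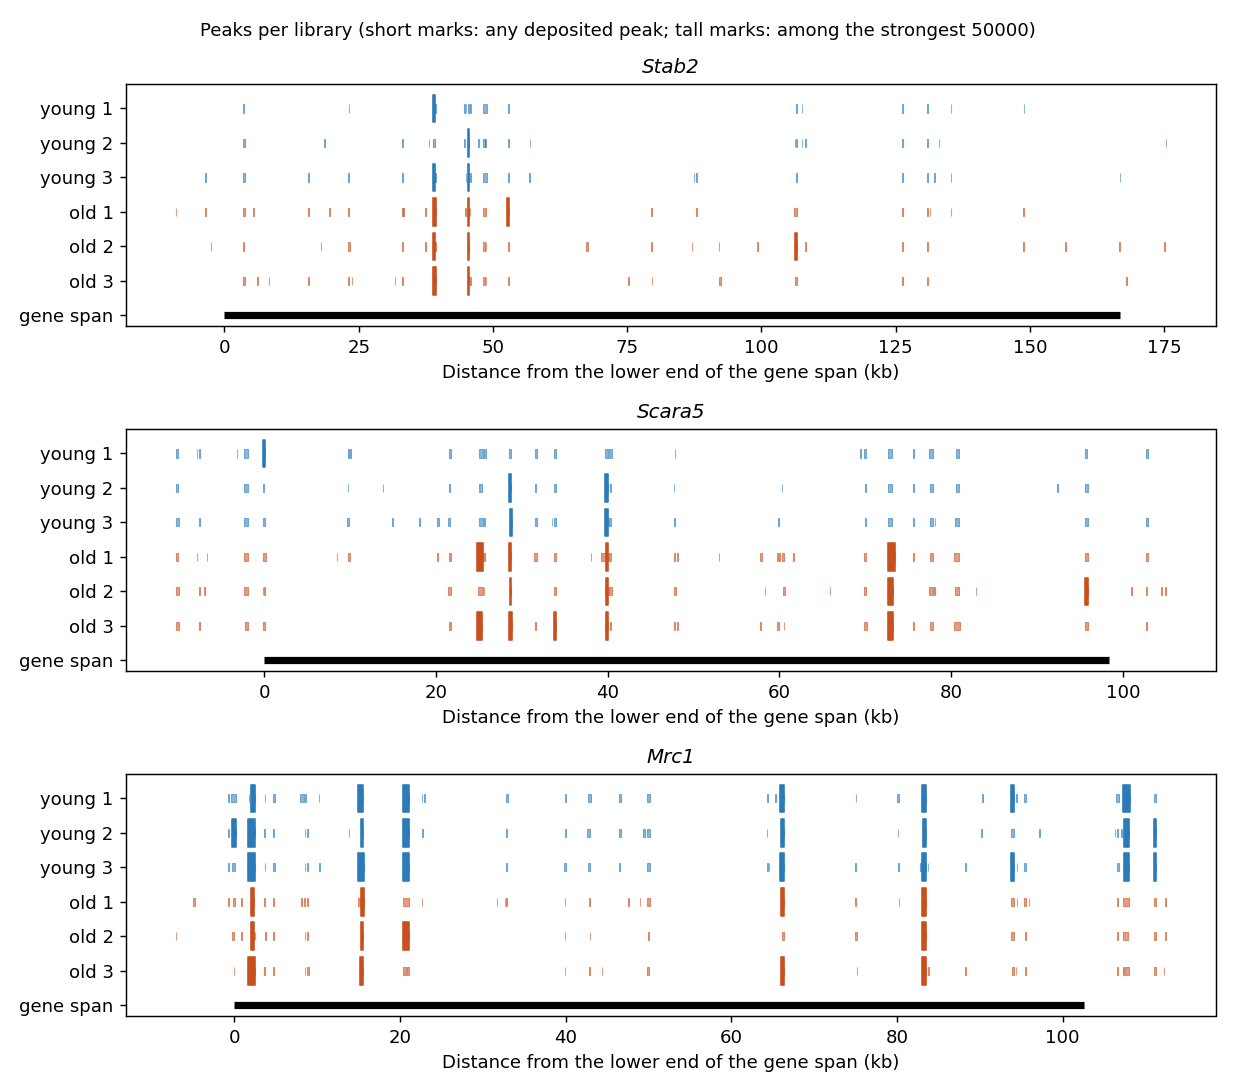
Positions of peaks in the 6 libraries across Stab2, Scara5 and Mrc1, as distance in kb from the lower end of the gene span (black bar). Short marks are all deposited peaks and tall marks those among the strongest 50000 of that library; tall marks number 7 or 8 in each young library and 4 or 5 in each old one at Mrc1, and 1 or 2 against 4 or 5 at Scara5.

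When deposited peaks needed a −log10 q of at least 2, Stab2 passed (log2 change 0.66, limma adjusted p = 0.0368) and Scara5 did not. At 5 neither passed, although the log2 changes were larger, at 1.05 and 1.08, and limma called 3 loci wider and 6 narrower of 15402. Neither passed without scaling (2 and 13 of 16952 loci called) or without the filter (0 and 4 of 21631), where the limma adjusted p was 0.208 for Stab2 and 0.258 for Scara5. Scara5 also lost its call without young replicate 1 (limma adjusted p = 0.0502). On the strongest peaks all 3 calls were lost without old replicate 1 or without old replicate 2, where 0 and 5 loci were called wider and 3 and 5 narrower over the genome. Stab2 passed on leaving out young replicate 3 but not any other single library (limma adjusted p from 0.0395 to 0.144), Scara5 without any one young library but not without old replicate 3 (0.0381 to 0.0868), and Mrc1 without old replicate 3 alone (0.0490 to 0.104). With total covered length as a covariate, or with the replicate block, limma called 0 of all 14395 loci of the strongest peaks in either direction, and so 0 of these genes. Limma adjusted p for Stab2, Scara5 and Mrc1 ran from 0.104 to 0.125 with the covariate and from 0.0548 to 0.106 with the block. With 25000 peaks per library all 3 fell below the filter. Their direction was kept in every other alternative run, with the log2 change on the strongest peaks between 0.98 and 1.66 for Stab2, 0.77 and 1.84 for Scara5 and -1.20 and -0.43 for Mrc1.

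**Figure D3:**
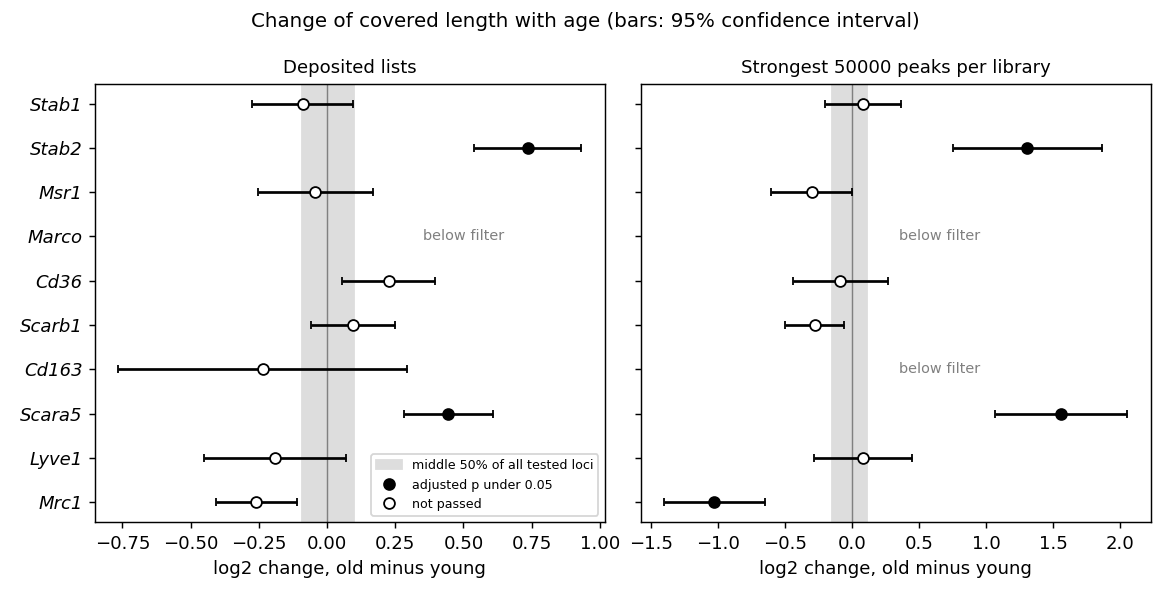
Log2 change of scaled covered length, old minus young, with 95% confidence intervals from limma, for the deposited lists (left) and the strongest 50000 peaks (right). Filled points passed an adjusted p of 0.05, and the grey band holds the middle 50% of all loci tested; Stab2 and Scara5 lie to the right of the band in both panels and Mrc1 to its left.

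Cd36 and Scarb1, the class B receptors, did not pass in either kind of list. At Cd36, on chromosome 5 from 17781690 to 17888959, deposited peaks covered 5368, 5850 and 6741 bp in young and 7210, 7029 and 6783 bp in old. The groups were just apart, with a log2 change of 0.23 (SE 0.08, limma adjusted p = 0.219). In the strongest peaks the values overlapped, at 2668, 3323 and 2862 bp in young and 2497, 3519 and 2375 bp in old (log2 change -0.09, SE 0.15, 95% interval -0.44 to 0.27). The deposited difference was greatest in one weak region near the lower end of the span, at 17786071 to 17787149, with 307, 184 and 643 bp in young and 1079, 900 and 886 bp in old and −log10 q of 1.72 to 2.99.

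The best Cd36 region, at 17879893 to 17880547, was covered alike in all libraries, over 634, 589 and 585 bp in young and 648, 568 and 586 bp in old. A strong region at 17842107 to 17842665 was on the 3 young lists (277, 516 and 551 bp) and 0 old ones, and it too had deposited peaks in every old library, of 595, 457 and 441 bp. The young peaks had a −log10 q of 11.1, 7.9 and 10.8 and the old ones 7.9, 3.2 and 3.7.

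Scarb1 lies on chromosome 5 from 125277087 to 125341094 and shares its locus with the non-coding Gm32701. Deposited coverage overlapped between ages, at 7227, 6470 and 7261 bp in young and 7575, 7011 and 7847 bp in old (log2 change 0.10, SE 0.07). In the strongest peaks the 3 old values, 3211, 2809 and 2971 bp, lay below the young 4085, 3518 and 3450 bp, with a log2 change of -0.28 (SE 0.10, limma adjusted p = 0.223). The 2 kinds of list thus gave opposite signs for this gene, and neither was called.

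Scarb1 held an age-only region of each kind. A deposited region at the edge of its lower flank, at 125267127 to 125267299, had a peak in 3 old libraries (159, 173 and 47 bp) and 0 young ones. A strong region in the gene body, at 125332952 to 125333511, had one in 3 young libraries (420, 387 and 239 bp) and 0 old ones, with deposited peaks there in all 3 old libraries. Its region with the highest −log10 q in the weakest library, in the lower flank at 125273619 to 125274149, was 470 to 531 bp wide in the 6 libraries. In the same flank, the largest difference, at 125267803 to 125268995, was 1065, 837 and 1054 bp in young and 930, 727 and 768 bp in old. A region beyond the higher end of the span, at 125350963 to 125351370, is named after its values were seen: it was covered over 336 to 378 bp in young and 352 to 405 bp in old, with −log10 q of 8.39, 5.80 and 14.2 in young and 32.0, 20.6 and 21.2 in old. That region runs past the locus end at 125351094, so only part of it was counted.

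Msr1, on chromosome 8 from 39543232 to 39642750, did not differ beyond its spread on the deposited lists. Covered length was 3374, 4289 and 4511 bp in young and 4191, 3689 and 3848 bp in old (log2 change -0.04, SE 0.10, 95% interval -0.25 to 0.17). In the strongest peaks the old values of 1178, 1408 and 1072 bp lay below the young 1737, 1468 and 1432 bp, narrowly for old replicate 2, with a log2 change of -0.30 (SE 0.13, limma adjusted p = 0.340). A strong gene-body region at 39594641 to 39595057 was on the 3 young lists (396, 240 and 400 bp) and 0 old ones, while deposited peaks there covered 199, 302 and 179 bp in old. The best region, beyond the higher end at 39651660 to 39652356, had a peak in all 6 libraries with −log10 q of 12.5 to 23.7. On the deposited lists the largest difference, at 39590808 to 39591248, was 0, 268 and 336 bp in young and 46, 0 and 77 bp in old, so it varied as much within an age.

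Marco, the other class A receptor of macrophages, had almost no peaks. Its span on chromosome 1 runs from 120474538 to 120505024, and the locus had 107, 71.6 and 74.3 bp of peak in young and 97.8, 270.5 and 33.3 bp in old, from 1 peak in each library and 3 in old replicate 2. It fell below the filter on both kinds of list and held none of the strongest peaks. A fit of the deposited lists without that filter gave it a log2 change of 0.17 (limma adjusted p = 0.946). None of its 6 regions was shared by all libraries, and the largest difference was a single 110 bp peak in old replicate 2, at 120498209 to 120498318.

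Stab1, the stabilin that macrophages share with sinusoidal endothelium, stayed within its spread. It lies on chromosome 14 from 31139017 to 31168651, with parts of Nt5dc2 and Nisch in its flanks. Deposited coverage was 3249, 3129 and 3051 bp in young and 3081, 2732 and 3019 bp in old (log2 change -0.09, SE 0.09), and the strongest peaks covered 1837, 2349 and 1824 bp in young and 2199, 1908 and 2266 bp in old (log2 change 0.08, SE 0.12). Part of this coverage lay in the flanks. The region with the highest −log10 q in its weakest library, at 31128209 to 31129257, begins below the locus start at 31129017, where it overlaps Smim4, so only part of it was counted. The region with the largest deposited difference, at 31172675 to 31173166, lies in Nisch (453, 325 and 492 bp in young and 310, 112 and 201 bp in old). Inside the span, the strong region at 31139725 to 31140119 appeared on the lists of old replicates 1 and 3 and no other library.

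Lyve1, the hyaluronan receptor, lies on chromosome 7 from 110850607 to 110862953 between Rnf141 and Mrvi1. Its deposited coverage overlapped between ages, at 2049, 1848 and 2095 bp in young and 1990, 1426 and 1799 bp in old (log2 change -0.19, SE 0.12, 95% interval -0.45 to 0.07). None of the strongest peaks lay within the span in any library: the 847, 788 and 718 bp in young and 687, 1051 and 813 bp in old came from the flanks. For that reason the value on the strongest peaks (log2 change 0.08, SE 0.16) says little of Lyve1 itself. The region with the highest −log10 q in its weakest library, at 110840257 to 110840710, overlaps Rnf141 and begins below the locus start at 110840607, so only part of it was counted. Within the span the largest difference, at 110859647 to 110859912, was 202, 0 and 252 bp in young and 0, 0 and 85 bp in old. The largest difference among strong peaks was 1 peak of 179 bp in old replicate 2, at 110863029 to 110863207.

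Cd163, the haemoglobin scavenger of resident macrophages, had no strong peak in any library. It lies on chromosome 6 from 124304636 to 124330529, where deposited peaks covered 1332, 1033 and 1431 bp in young and 1719, 884 and 706 bp in old. Old replicate 1 was the highest and old replicate 3 the lowest of the 6, and the log2 change of -0.24 had a wide error (SE 0.24, 95% interval -0.76 to 0.29). Most of it came from 1 region of the gene body, at 124321275 to 124322356, with 792, 555 and 1045 bp in young and 978, 397 and 327 bp in old and −log10 q no higher than 5.64.

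Over the 10 loci the deposited peaks merged into 325 regions, of which 92 (28.3%) had a peak in all 6 libraries, against 30.0% over the genome. One region was found in 3 old and 0 young libraries and 2 in 3 young and 0 old ones, where the genome gave 0.513% and 1.42% of regions. The strongest peaks merged into 56 regions, of which 20 (35.7%) were in all 6 libraries, against 50.9% over the genome. Here 1 region was found in the 3 old lists alone, at Scara5, and 4 in the 3 young lists alone, at Mrc1, Cd36, Scarb1 and Msr1, against 3.29% and 2.59%. Each of those 5 had deposited peaks in all 6 libraries, so they differ in rank among a library's peaks and not in being called. The weakest of the 50000 peaks had a −log10 q of 8.86, 6.71 and 9.96 in young and 9.53, 5.72 and 6.47 in old.

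Of 26 further scavenger and endocytic receptor genes, 25 were tested on the deposited lists and 19 on the strongest peaks, and limma called 0 in either. An unadjusted limma p under 0.05 was reached by 3 and 2 of them, where all loci tested gave 2164 of 16952 and 2136 of 14395. With 100000 peaks per library, Olr1 and Megf10 passed. The smallest p on the deposited lists belonged to Asgr2, a subunit of the asialoglycoprotein receptor (log2 change -0.31, SE 0.12, limma adjusted p = 0.277), and Pla2r1, a phospholipase receptor of the mannose receptor family (-0.18, SE 0.08, limma adjusted p = 0.368). Among the genes tested on the strongest peaks they belonged to Lrp1, an endocytic receptor of the LDL receptor family, and to Asgr2. Lrp1 had 6190, 6421 and 6587 bp in young and 7012, 7820 and 7544 bp in old (log2 change 0.21, SE 0.07, limma adjusted p = 0.216), and Asgr2 1915, 1770 and 1748 bp against 1372, 1605 and 1335 bp (-0.30, SE 0.11, limma adjusted p = 0.247). The medians of the tested genes were -0.03 and -0.12.

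All 10 macrophage marker loci had peaks in every library. On the deposited lists Adgre1 (F4/80) had 955 to 1246 bp in young and 1089 to 1412 bp in old. Siglec1 (CD169) had 2053 to 2731 bp and 2234 to 2627 bp, where the median of all loci was 1984 bp. On the strongest peaks Adgre1 fell below the filter, with means of 415 bp in young and 379 bp in old. B-cell marker loci had deposited peaks in every library too, so having peaks does not set the labelled cell type apart. Beside the calls on the strongest peaks, the summed length of 10 macrophage marker loci was 22739 to 23194 bp in young and 18691 to 20296 bp in old. Of the 9 tested, 7 were lower in old and 2 higher. Old values lay wholly below young values at 3 and wholly above at 1, Cd68, where all loci gave 10.5% and 9.84%. Only the efferocytosis receptor Mertk was called, with a fall of 0.53 on the log2 scale (SE 0.09, limma adjusted p = 0.0347). The sum of 10 stromal marker loci was 14968 to 16704 bp in young and 20727 to 21688 bp in old, with 0 of 9 called. Of these 9, 6 were higher in old and 3 lower, and old values lay wholly above young values at 3 and wholly below at 0. The largest rises in mean were at Kitl (759 to 2478 bp) and at the long Runx2 locus (5963 to 7487 bp). On the deposited lists 3 stromal markers were higher and 7 lower. The stromal marker nearest to a call was Kitl (stem cell factor), with a log2 change of 1.57 (SE 0.29, limma adjusted p = 0.0519).

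Endothelial markers, listed because STAB2 and LYVE1 are known from endothelium, summed to 10754 to 11245 bp in young and 10820 to 11876 bp in old on the strongest peaks, with 0 of 7 called. Emcn was at 0 in every library there, and Prox1 and Tek at 0 in some. B-cell marker loci summed to 10575 to 11655 bp in young and 11408 to 12799 bp in old, with 0 of 7 called and Cd22 at 0 in 4 libraries. Old values lay wholly above young values at 3 of these 7 and wholly below at 1, and at 0 endothelial markers either way. The stromal marker Lepr was at 0 in young replicates 1 and 2. On the deposited lists all 40 marker loci had peaks in every library, and the young and old ranges of the 4 sums overlapped, with 0 markers called. The part of other cell types in the changes at Stab2, Scara5 and Mrc1 was not tested, and in bulk chromatin fewer cells of a type and less accessibility per cell cannot be told apart.

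**Figure D4:**
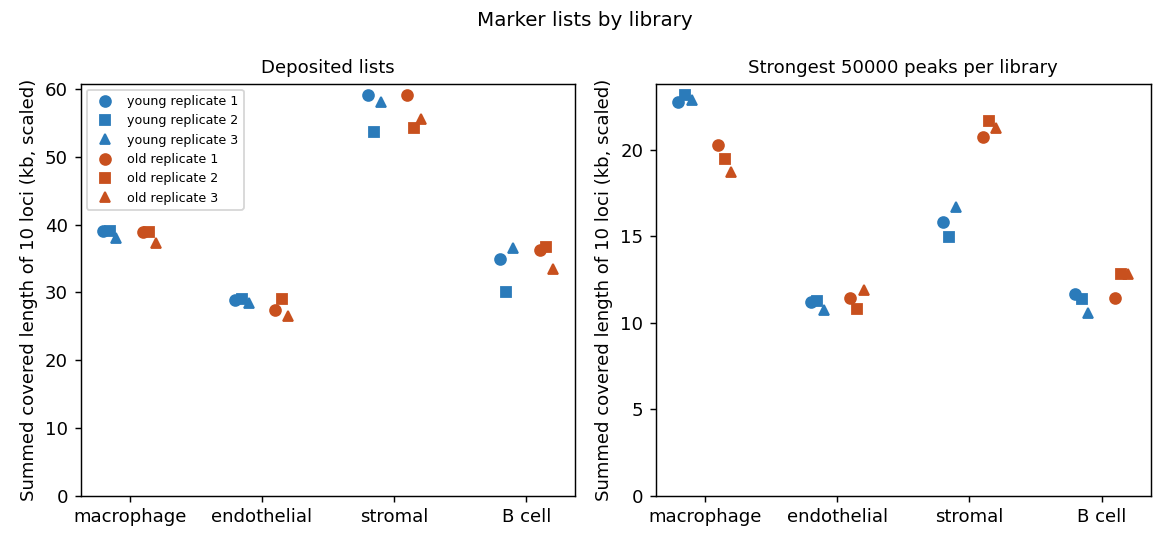
Summed scaled covered length, in kb, of 10 marker loci each for macrophages, endothelium, stromal cells and B cells, one point per library. On the strongest peaks (right) the macrophage sum is lower and the stromal sum higher in every old library than in every young one; on the deposited lists (left) the ages overlap.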

How the data were processed

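Per the labels, 3 young and 3 old Omni-ATAC libraries were sequenced in pairs of 125 bp reads over 4 lanes. The submitters' processing notes list MACS2 2.1.0.20140616, Bowtie2 2.2.6, cutadapt 1.14, Trim Galore 0.4.4, Picard, SAMtools and the build mm10, with no roles. The authors deposited one MACS2 broad peak list per library, not pooled, with a score, a fold enrichment (ratio), and −log10 p and −log10 q for each peak. Not given in the sources used here are the handling of duplicate reads, the transposase shift and masked regions. The 10 genes, gene lists, motifs and markers were chosen with earlier results of these data known.

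Covered bp per locus (span with 10 kb on each side) were scaled so that each library had the same total. Loci averaging at least 500 bp before scaling entered limma 3.58.1 (R 4.3.3), with empirical Bayes moderation set to trend and robust, on log2(bp + 200), two-sided, with Benjamini-Hochberg adjustment over all loci tested and a threshold of 0.05. The test was checked on simulated data. Regions are peaks of the 6 libraries merged where they overlap by 1 bp or more. All 10 genes were named. Regions were named where they belong to one age, have the highest −log10 q in their weakest library, or differ most in mean covered bp. A region of one age had a peak in all 3 libraries of that age and in none of the other. A further Scarb1 region was named after its values were seen. Of the 26 further receptors, those called and the 2 with the smallest p per kind of list were named. Gm models and Mir511 are named as neighbours, and Mertk, Cd68, Kitl, Runx2, Olr1, Megf10 and markers at 0 were named after their values were seen. Overlaps were computed in Python 3.11.15 with numpy 2.4.6 and pandas 2.3.3, and figures drawn with matplotlib 3.10.9.

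The alternatives used only peaks of −log10 q from 2 or from 5 upward, lists of 25000 or 100000 peaks, the gene span alone, a pseudocount of 50 bp, no scaling, no filter, total covered length as a covariate, a replicate block, merging within 200 bp, and leaving out each library.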

Additional observations from a re-analysis of the deposited data

How the results depend on the processing

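The number of the 10 genes called on the deposited lists was 2. It was 1 at a −log10 q of at least 2 (Stab2) and 0 at 5, without scaling or without the filter, and 1 to 2 on leaving out one library. Of the 3 genes called on the strongest peaks, 0 were called with 25000 peaks, without scaling, with total covered length as a covariate or with the replicate block, 1 with the gene span alone (Stab2), 2 with 100000 peaks (Stab2 and Mrc1) or a pseudocount of 50 bp (Scara5 and Mrc1), and 0 to 2 without one library. Over all loci, calls (wider and narrower) were also few at 5 (3 and 6 of 15402), without scaling (2 and 13 of 16952) and without the filter (0 and 4 of 21631) on the deposited lists, and on the strongest peaks without scaling (1 and 4 of 14395) and with the covariate or block (0 and 0), but not with 25000 peaks (113 and 55 of 12243). With the replicate block the deposited count remained 2. The labels do not say whether same-numbered libraries belong together. Same-numbered deviations correlated at 0.14, 0.13 and -0.16 on the deposited lists and 0.05, 0.05 and 0.03 on the strongest peaks. On the strongest peaks every library correlated best with its own number, so these values do not settle whether the libraries are paired. The causes were not tested, save that 25000 peaks leave 5 of the genes testable.

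Uncalled genes changed sign as follows, as log2 change. On the deposited lists Stab1 had 0.0091 at a −log10 q of at least 2 and 0.013 with the gene span alone. At 5, Cd36 had -0.049, Scarb1 -0.040 and Lyve1 0.071. Cd163 had 0.088 with the covariate, and Msr1 ranged from -0.16 to 0.035 without one library. Without scaling the median of all loci moved to -0.14, and Scarb1, at -0.065, lay above it. On the strongest peaks Stab1 had -0.064 and Cd36 0.096 with 100000 peaks. Without scaling, which moved the median to -0.11, Stab1 had -0.029 and Lyve1 -0.020. Lyve1 had -0.67 with 25000 peaks, -0.028 with the covariate and -0.052 to 0.20 without one library, and Cd36 -0.25 to 0.013 without one library.

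Regions of one age numbered 3 on the deposited lists (4 with peaks merged within 200 bp or with −log10 q of 2 or more, 7 to 12 without one library) and 5 on the strongest peaks (5 merged, 4 with 25000 peaks, 5 to 9 without one library), since fewer libraries then have to share a region. Unknown read depth limits all absences of peaks.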
